A study of Arabidopsis thaliana with 6 samples.

Results

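Transcript levels of 10 genes of brassinosteroid synthesis and signalling were examined in the stem of the thale cress, Arabidopsis thaliana. The 10 were taken by locus identifier: DET2, DWF4, CPD, ROT3, BR6OX1 and BR6OX2 for synthesis, BAS1 for inactivation, the receptor BRI1, and the transcription factors BZR1 and BES1. All 10 were present among the 24434 genes of the deposited table. RNA sequencing had been carried out on 3 wild-type (WT) plants and 3 plants overexpressing Bnt07G011994, all of the Columbia ecotype and grown in the greenhouse at 22 °C with 15 h light and 9 h dark. Each sample held the stems of 1 plant, cut at a length of about 10 cm. The labels give neither the promoter driving the transgene, nor the number of transgenic lines behind the 3 overexpressor plants, nor the time of day at which stems were cut. The identifiers were Arabidopsis loci, so the transgene itself was not analysed here.

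Brassinosteroids are steroid hormones that promote cell elongation and the formation of vascular tissue, and mutants that cannot make or perceive them are dwarfs with short stems. They are made from plant sterols by a reductase and a series of cytochrome P450 enzymes. At the cell surface the hormone binds the receptor kinase BRI1, the kinase BIN2 downstream is switched off, and the factors BZR1 and BES1 then accumulate in the nucleus. In seedlings these factors are known to repress synthesis genes such as CPD and DWF4, a feedback that keeps hormone levels within limits.

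None of the 9 members tested passed the threshold for a difference between the genotypes. With 3 plants in each group this does not show equal levels. Values are FPKM, fragments counted per length of exon and scaled to the size of the library, which can be compared between genes. Differences were tested with limma on log2(FPKM + 1), with Benjamini-Hochberg adjustment over all genes. Of the 10 members, 9 reached the mean of 1 FPKM required for testing, and 0 of these 9 were called at an adjusted p under 0.05, in a comparison where 0.0119% of the 16870 genes tested were called. At an unadjusted p under 0.05 there were 0 members against 916 of all genes, and voom on recovered reads also called 0 members. The mean was higher in the overexpressor for 7 of the 9 and lower for 2, with a median log2 fold change of 0.20. Over all genes tested 42.3% were higher and the median was -0.04. Without WT replicate 1, described next, 2 were higher and 7 lower and the median was -0.08. Over all genes tested 44.5% were then higher and the median was -0.02. Again 0 of 9 members were called where 0.136% of all genes were.

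Assigned reads per library numbered 44597288 to 45642240. WT replicate 1 stood apart from the other 5 libraries. Across genes its Spearman correlation with the others was 0.942 to 0.968, against 0.983 to 0.993 among the other 5. It was the lowest of the 6 libraries in 31.9% of the genes tested and the highest in 42.4%. Among the 9 tested members it was the lowest in 8 and the highest in 1, DET2. The untested BR6OX1 was also lowest there. WT replicates 2 and 3 were the most alike pair. Their squared difference was still 3.11 times that from counting noise (median over genes), and they were kept as separate samples. Stem identity was checked with marker genes. The secondary wall cellulose synthases CESA4, CESA7 and CESA8 summed to 109 FPKM in WT replicate 1, 648 and 689 FPKM in WT replicates 2 and 3, and 521 to 796 FPKM in the overexpressor. In whole stems, fewer cells of a type and less transcript per cell cannot be told apart, for these markers and for the members alike. Of 4 root markers 3 were in the table, and they summed to at most 0.0569 FPKM in any library, with CASP1, CASP2 and COBL9 at 0 in all 3 overexpressor libraries. The 5 flower and anther markers present, of 7 listed, summed to 0.719 to 2.35 FPKM in WT and 0.695 to 1.64 FPKM in the overexpressor, and 3 seed markers to at most 0.0245 FPKM except in overexpressor replicate 1 (1.70 FPKM).

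**Figure D1:**
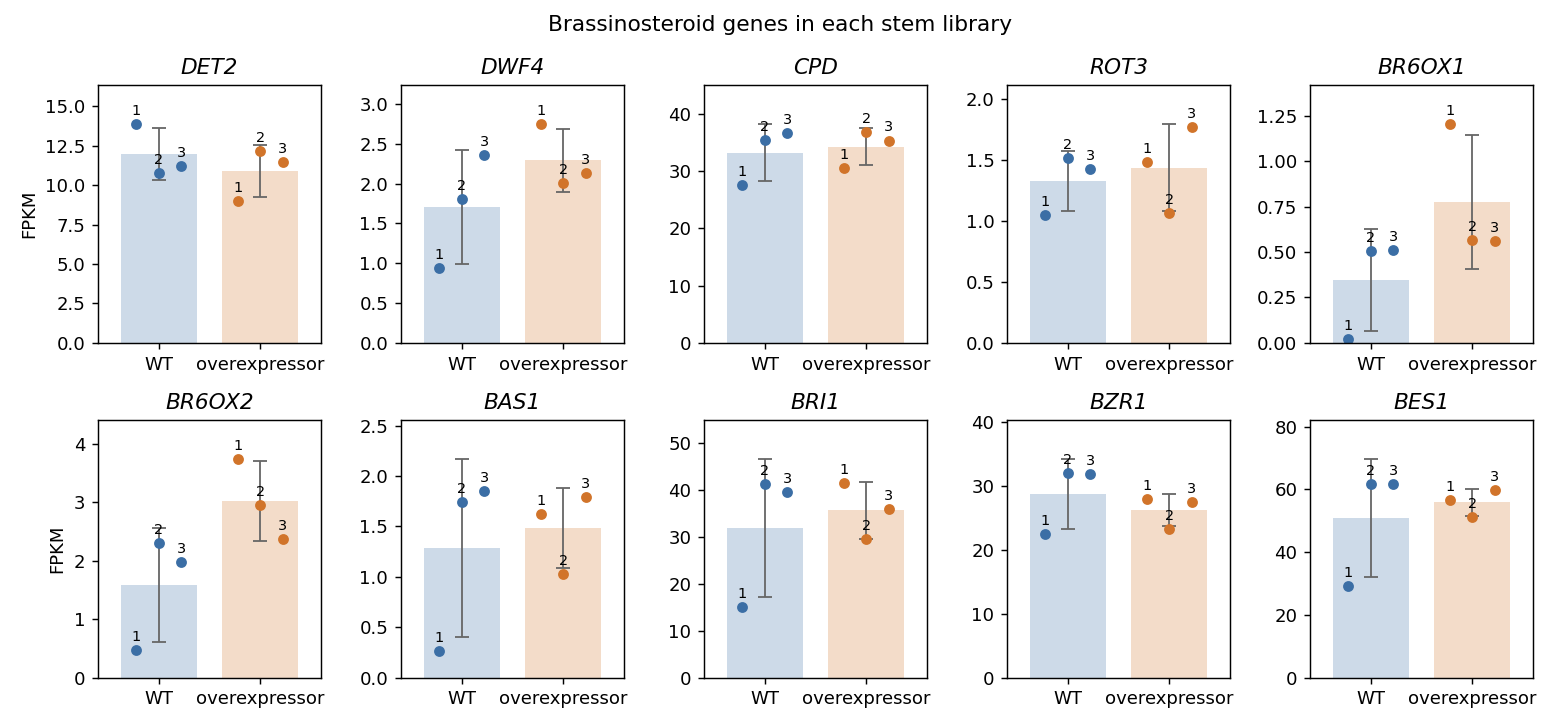
FPKM of each of the 10 members (vertical axis, from 0) in WT (blue) and overexpressor (orange) stems. Points are single libraries, numbered by replicate, bars are group means and error bars the SD over 3 libraries. WT replicate 1 is the lowest point in 9 panels, most clearly for BR6OX1 (0.0219 FPKM), and the highest in the panel of DET2 (13.8 FPKM).

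The levels ran from BES1, with a mean of 53.4 FPKM over the 6 libraries, down to BR6OX1, with 0.562 FPKM. BRI1 (33.9 FPKM) and CPD (33.8 FPKM) followed BES1 and could not be ranked, since BRI1 was above CPD in 4 of 6 libraries. BZR1 (27.5 FPKM) lay below CPD in all 6 libraries, by more than the summed SDs in the overexpressor and not in WT. DET2 (11.4 FPKM) was clear of its neighbours on either side, with no overlap of ranges. BR6OX2 (2.30 FPKM) and DWF4 (2.00 FPKM) changed order between libraries, as did BAS1 (1.38 FPKM) and ROT3 (1.38 FPKM). Between the lowest and highest library, CPD varied 1.34-fold, BZR1 1.42-fold, DET2 1.54-fold and ROT3 1.69-fold. BES1 varied 2.11-fold, BRI1 2.76-fold and DWF4 2.93-fold, against 7.0-fold for BAS1 and 7.78-fold for BR6OX2.

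The 250 bases before the annotated start of 4 members are shown, as pairs of related genes picked after their values were seen. BR6OX1 and BR6OX2 were the members whose genotype groups did not overlap, and BZR1 and BES1 are the pair of factors whose ratio is also given. Sequences are from the RefSeq assembly TAIR10.1, written 5′ to 3′ on the strand of the gene. BR6OX1 is chr5:15598090-15598339 on the minus strand, and BR6OX2 (chr3:11810476-11810725), BZR1 (chr1:28185254-28185503) and BES1 (chr1:6688213-6688462) are on the plus strand. Capitals mark matches to CGTGTG or CGTGCG, the brassinosteroid response element bound by BZR1, and to CACGTG, the G-box, searched on both strands.
BR6OX1: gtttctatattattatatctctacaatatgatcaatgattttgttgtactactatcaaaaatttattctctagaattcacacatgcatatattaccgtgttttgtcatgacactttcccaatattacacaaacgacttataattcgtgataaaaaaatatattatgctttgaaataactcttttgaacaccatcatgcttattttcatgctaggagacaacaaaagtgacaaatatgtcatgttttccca
BR6OX2: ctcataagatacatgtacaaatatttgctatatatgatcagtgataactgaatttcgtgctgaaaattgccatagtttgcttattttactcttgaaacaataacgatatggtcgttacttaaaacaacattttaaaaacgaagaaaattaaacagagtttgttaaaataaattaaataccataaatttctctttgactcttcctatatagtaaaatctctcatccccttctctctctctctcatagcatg
BZR1: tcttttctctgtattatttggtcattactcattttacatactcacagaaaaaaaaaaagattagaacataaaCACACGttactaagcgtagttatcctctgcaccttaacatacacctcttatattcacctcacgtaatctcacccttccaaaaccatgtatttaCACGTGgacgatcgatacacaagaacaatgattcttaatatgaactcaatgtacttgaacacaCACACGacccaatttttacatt
BES1: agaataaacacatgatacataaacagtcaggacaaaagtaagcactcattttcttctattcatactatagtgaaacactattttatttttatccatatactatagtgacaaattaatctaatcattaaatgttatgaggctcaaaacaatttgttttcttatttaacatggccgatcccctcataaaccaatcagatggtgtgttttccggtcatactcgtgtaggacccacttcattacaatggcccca

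Of the 10 members, only BZR1 held either motif in this window. CGTGTG was found on the opposite strand 178 to 173 and 22 to 17 bases before the start, and the G-box 85 to 80 bases before it, with no overlap between matches. Among 27443 windows of the same length before nuclear protein-coding genes, 6.71% held either form of the response element and 6.49% the G-box. The windows of the other 9 members do not contain these letters, which says nothing of elements elsewhere.

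DET2 and CPD were among the members that varied least. DET2 (AT2G38050; chromosome 2, 15921136 to 15922321, minus strand), the steroid reductase that acts near the head of the pathway, measured 13.8, 10.8 and 11.2 FPKM in WT replicates 1, 2 and 3, against 9.01, 12.1 and 11.5 FPKM in overexpressor replicates 1, 2 and 3. The groups overlapped, and their means were 11.95 ± 1.66 and 10.9 ± 1.65 FPKM (SD, n = 3 each). The log2 fold change was -0.13 (95% interval -0.49 to 0.24, limma adjusted p = 0.825). CPD (AT5G05690; chromosome 5, 1702640 to 1706948, minus strand), a P450 of the main route, measured 27.6, 35.5 and 36.7 FPKM in WT against 30.6, 36.8 and 35.4 FPKM in the overexpressor. With 2373 to 3244 reads per library it was measured closely, and the log2 fold change of 0.05 had a 95% interval of -0.29 to 0.39 (limma adjusted p = 0.922).

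DWF4 and ROT3 encode P450 enzymes that hydroxylate the sterol side chain, DWF4 at the step known to limit the rate. DWF4 (AT3G50660; chromosome 3, 18813949 to 18817405, minus strand) measured 0.938, 1.81 and 2.36 FPKM in WT against 2.75, 2.01 and 2.13 FPKM in the overexpressor. WT replicate 1 was below all others, while WT replicate 3 lay above 2 of the 3 overexpressor libraries (log2 fold change 0.32, SE 0.23, limma adjusted p = 0.805). For DWF4 this fold change was 0.09 without WT replicate 1, 0.12 with sample quality weights and 0.51 with voom on recovered reads. ROT3 (AT4G36380; chromosome 4, 17187528 to 17192507, minus strand) measured 1.05, 1.51 and 1.42 FPKM in WT against 1.48, 1.06 and 1.77 FPKM in the overexpressor. WT replicate 1 and overexpressor replicate 2 were nearly equal and low, and the groups overlapped (log2 fold change 0.06, SE 0.16, limma adjusted p = 0.918). The ratio of CPD to DWF4 was 15.5 to 29.4 in WT and 11.1 to 18.3 in the overexpressor, highest in WT replicate 1.

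The oxidases that complete the hormone were the members with the widest spread. BR6OX2 (AT3G30180; chromosome 3, 11810726 to 11813883, plus strand), which carries out the last oxidations to brassinolide, measured 0.481, 2.30 and 1.98 FPKM in WT against 3.74, 2.95 and 2.36 FPKM in the overexpressor. All 3 overexpressor libraries lay above all 3 WT libraries, at means of 3.02 ± 0.688 and 1.59 ± 0.971 FPKM (SD, n = 3 each). The gap was narrow, since overexpressor replicate 3 held 204 reads (95% Poisson interval 177 to 234) and WT replicate 2 held 199 (172 to 229), intervals that cover counting error only. The log2 fold change was 0.70 (95% interval -0.11 to 1.52, limma adjusted p = 0.805). Without WT replicate 1 it was 0.34 (limma adjusted p = 0.545, range over all alternatives 0.461 to 1.00). Over all alternatives the fold change itself ran from 0.15 with sample quality weights to 1.184 with voom on recovered reads.

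BR6OX1 (AT5G38970; chromosome 5, 15594674 to 15598089, minus strand), the related oxidase that yields castasterone, had the lowest level of the members. It measured 0.0219, 0.507 and 0.512 FPKM in WT against 1.203, 0.567 and 0.563 FPKM in the overexpressor, or 2, 47 and 47 reads and 112, 53 and 52 reads. The 2 reads in WT replicate 1 have a 95% Poisson interval of 0.242 to 7.22. The groups did not overlap, but apart from the lowest WT and the highest overexpressor library the 95% Poisson intervals of the other 4 overlapped. With a mean of 0.562 FPKM it missed the filter, and without a filter its log2 fold change was 0.40 (SE 0.21, limma adjusted p = 0.815). Among the 9 members tested, only BR6OX2 had groups that did not overlap with the overexpressor higher, against 4.76% of all genes tested, and 0 members had the overexpressor lower, against 9.69%. Exons of the 2 oxidases matched over 1214 bp at 81.5% identity. With loci that overlap a member left out, no member had another locus matching at 95% identity over 100 bp.

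**Figure D2:**
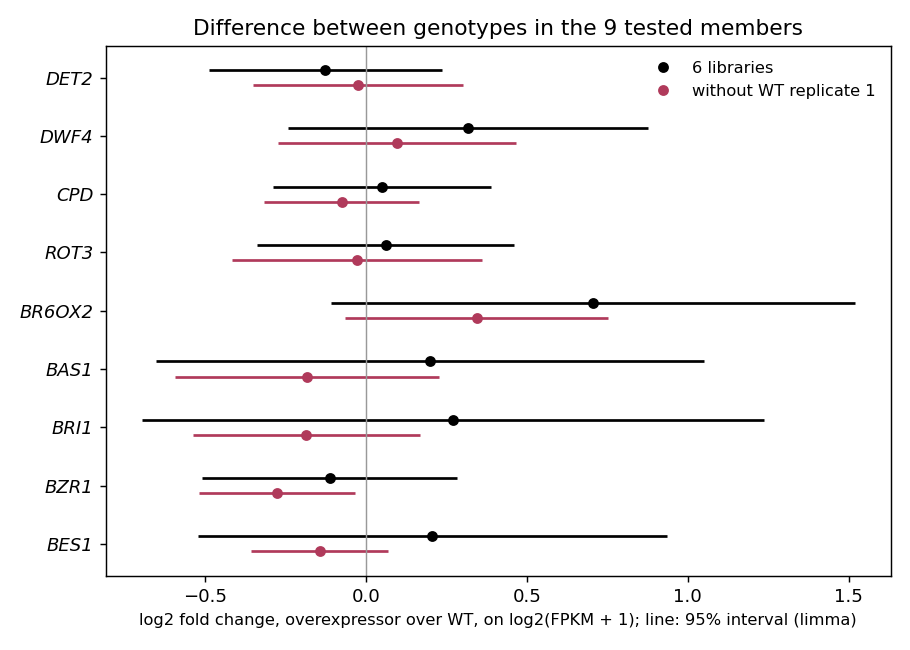
Log2 fold change of overexpressor over WT on the log2(FPKM + 1) scale (horizontal axis) for the 9 tested members, with 95% intervals from limma. Black shows all 6 libraries and red the fit without WT replicate 1. With 6 libraries every interval spans 0, and without WT replicate 1 the estimates of CPD, ROT3, BAS1, BRI1 and BES1 change sign.

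BAS1, the P450 that inactivates brassinosteroids, had low transcript in the same library as the oxidases. BAS1 (AT2G26710; chromosome 2, 11380463 to 11383821, plus strand) measured 0.264, 1.74 and 1.85 FPKM in WT against 1.62, 1.03 and 1.79 FPKM in the overexpressor. Overexpressor replicate 2 was the next lowest, and the other 4 libraries lay close together. The log2 fold change was 0.20 (95% interval -0.65 to 1.05, limma adjusted p = 0.874), and -0.18 without WT replicate 1 (limma adjusted p = 0.761, range over all alternatives 0.716 to 1.00). The ratio of BAS1 to BR6OX2 was 0.549, 0.758 and 0.933 in WT and 0.435, 0.349 and 0.756 in the overexpressor, with overlap.

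The receptor gene BRI1 (AT4G39400; chromosome 4, 18324457 to 18328831, plus strand) measured 15.1, 41.2 and 39.7 FPKM in WT against 41.6, 29.5 and 36.1 FPKM in the overexpressor. Its 2939 to 8281 reads per library made counting error small beside these differences. WT replicate 1 and overexpressor replicate 2 were low, and the group means of 32.0 ± 14.7 and 35.7 ± 6.08 FPKM (SD, n = 3 each) differed by less than their spread. The log2 fold change was 0.27 (95% interval -0.70 to 1.24, limma adjusted p = 0.855). Without WT replicate 1 it was -0.19 (95% interval -0.54 to 0.17, limma adjusted p = 0.712, range over all alternatives 0.319 to 1.00).

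The factors BZR1 and BES1 are close relatives, with exons matching over 1161 bp at 81.1% identity. BES1 (AT1G19350; chromosome 1, 6688463 to 6691216, plus strand) measured 29.3, 61.8 and 61.7 FPKM in WT against 56.5, 51.3 and 59.6 FPKM in the overexpressor. Apart from WT replicate 1 the libraries were within a narrow band, with a log2 fold change of 0.21 (95% interval -0.52 to 0.93, limma adjusted p = 0.852). BZR1 (AT1G75080; chromosome 1, 28185504 to 28188075, plus strand) measured 22.5, 32.0 and 31.8 FPKM in WT against 27.9, 23.3 and 27.5 FPKM in the overexpressor. For BES1 and BZR1 alike, all 3 overexpressor libraries lay below WT replicates 2 and 3 and above WT replicate 1. The log2 fold change of BZR1 was -0.11 (95% interval -0.51 to 0.28, limma adjusted p = 0.850). Without WT replicate 1 it was -0.28, with a 95% interval of -0.52 to -0.04 and a limma adjusted p of 0.410, and over all alternatives that adjusted p ran from 0.0534 to 1.00.

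The ratio of BES1 to BZR1 did not overlap between the genotypes, though WT replicates 2 and 3 lay close to overexpressor replicate 1. It was 1.30, 1.93 and 1.94 in WT and 2.03, 2.20 and 2.17 in the overexpressor, with means of 1.72 ± 0.364 and 2.13 ± 0.0931 (SD, n = 3 each). This ratio was examined after the values were seen, and no test was run on it. The ratios of CPD to DWF4 and of BAS1 to BR6OX2 overlapped between the genotypes. So did that of BR6OX2 to BR6OX1, at 3.87 to 21.9 in WT and 3.11 to 5.21 in the overexpressor. The share of all gene pairs without overlap was not computed. Overlapping genes limit both values. Of the 2437 bp of BES1 exons, 818 bp overlap exons of RRA3 on the opposite strand (15.1 to 21.6 FPKM). Of the 1924 bp of BZR1 exons, 282 bp overlap AT1G75090 (0.918 to 4.47 FPKM) and 220 bp overlap a long non-coding RNA that was not analysed here. Shorter overlaps limit other members. DET2 shares 35 of 1101 bp with CAC3, which stood higher, at 63.5 to 77.6 FPKM. ROT3 shares 83 of 2397 bp with AT4G36370 (no value given), and CPD 20 of 1929 bp with MOS7 (4.64 to 5.81 FPKM). Whether counting used the strand is not given in the sources used here, so reads of these overlaps cannot be assigned to either gene.

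A further 55 genes of the pathway were listed by role, and 45 of them were tested. None was called with 6 libraries, where 2 had an unadjusted limma p under 0.05 and voom on recovered reads also called 0. None was called without WT replicate 1. Of the 45, 31 were higher and 14 lower in the overexpressor (median log2 fold change 0.11), and without WT replicate 1 these were 20 and 25 (median -0.04). Over all genes tested 42.3% were higher, and 44.5% without WT replicate 1, shares that stand beside each list below. WT replicate 1 was the lowest library in 26 of the 45 and the highest in 7, beside 31.9% and 42.4% of all genes tested. In 3 of the 45 the overexpressor lay wholly above WT and in 1 wholly below, beside 4.76% and 9.69% of all genes tested.

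Of 7 other sterol and brassinosteroid enzymes tested, 6 were higher and 1 lower in the overexpressor, with a median log2 fold change of 0.14. DWF5, a sterol reductase, measured 50.7, 50.7 and 46.9 FPKM in WT against 51.1, 48.1 and 43.5 FPKM in the overexpressor (limma adjusted p = 0.863). DWF1, which reduces the sterol side chain, measured 44.6, 45.5 and 46.5 FPKM and at 61.3, 47.0 and 39.3 FPKM (limma adjusted p = 0.881). The WT libraries were close together for both enzymes, WT replicate 1 included. This did not hold across the list, where WT replicate 1 was the lowest library in 4 of 7. SMT1, a sterol methyltransferase, measured 21.1, 44.9 and 43.9 FPKM in WT against 54.6, 34.3 and 37.5 FPKM in the overexpressor, and FK, a sterol reductase, 3.91, 7.53 and 8.78 FPKM against 8.18, 6.70 and 7.27 FPKM. CYP90D1, a P450 related to ROT3, measured 16.2, 25.7 and 25.5 FPKM against 22.5, 22.8 and 28.3 FPKM. These 3 were picked once their values had been seen.

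Of 5 inactivation genes beside BAS1, 2 were tested. They differed in the direction in which WT replicate 1 lay. DOGT1, a glucosyltransferase that inactivates brassinolide, measured 20.5, 8.91 and 7.39 FPKM in WT against 6.91, 12.1 and 6.67 FPKM in the overexpressor (limma adjusted p = 0.809). BEN1, a reductase-like protein linked to hormone inactivation, measured 0.179, 2.17 and 1.61 FPKM and at 2.23, 1.47 and 1.08 FPKM (limma adjusted p = 0.862). DOGT1 was thus highest and BEN1 lowest in WT replicate 1.

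Of 8 tested genes of the receptor complex 3 were higher and 5 lower in the overexpressor (median log2 fold change -0.06). BAK1, the co-receptor of BRI1, measured 24.5, 27.3 and 26.3 FPKM in WT against 26.6, 22.8 and 23.7 FPKM in the overexpressor, and its relative SERK4 at 12.9, 16.7 and 17.7 FPKM and at 18.4, 14.9 and 15.2 FPKM (limma adjusted p = 0.805 and 0.942). WT replicate 1 was the lowest library in 4 of the 8. It stood at 0.915 of the mean of WT replicates 2 and 3 for BAK1, against 0.372 for BRI1, 0.413 for BRL2, a relative of BRI1, and 0.382 for SERK1, a relative of BAK1. BRL2 measured 5.01, 11.7 and 12.6 FPKM in WT against 9.52, 11.4 and 10.2 FPKM in the overexpressor, and SERK1 0.872, 2.27 and 2.30 FPKM against 2.46, 2.84 and 1.69 FPKM. BRL2 and SERK1 were named after their values were seen.

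Among 9 tested genes of the cytoplasmic relay 6 were higher and 3 lower (median log2 fold change 0.11). BSK1, a receptor-associated kinase, measured 62.4, 58.1 and 57.9 FPKM in WT against 46.8, 56.6 and 52.2 FPKM in the overexpressor, without overlap (log2 fold change -0.20, limma adjusted p = 0.805). BIL1, a relative of BIN2, measured 41.2, 52.1 and 52.8 FPKM and at 58.2, 49.9 and 52.3 FPKM (limma adjusted p = 0.805). BIN2 itself, named after its values were seen, was at 39.1 to 54.6 FPKM in WT and 47.2 to 57.2 FPKM in the overexpressor.

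Of 10 other transcription factors tested, 6 were higher and 4 lower (median log2 fold change 0.02). IWS1, a partner of BES1, stood at 48.5 to 49.6 FPKM in WT and 47.6 to 52.5 FPKM in the overexpressor, and BEH2, a relative of BZR1, at 28.8 to 42.6 FPKM and 32.4 to 41.7 FPKM (limma adjusted p = 0.999 and 0.981). TCP1, a factor known to raise DWF4 expression, measured 0.319, 1.603 and 1.79 FPKM in WT against 3.14, 2.95 and 4.60 FPKM in the overexpressor. All overexpressor values were above all WT values, with 28 to 158 reads against 265 to 409. The log2 fold change of TCP1 was 1.09 (SE 0.32, limma adjusted p = 0.805) and 0.74 without WT replicate 1 (limma adjusted p = 0.238, range over all alternatives 0.00858 to 1.00). MYBL2, a repressor that acts with BES1, measured 47.1, 4.69 and 5.62 FPKM in WT against 10.2, 20.2 and 13.5 FPKM in the overexpressor, so that WT replicate 1 was above and WT replicates 2 and 3 below all overexpressor libraries. TCP1, MYBL2, BSK2 and BEH4 were named after their values were seen. With sample quality weights, where 10.5% of all genes were called, 4 of the 45 pathway genes were called and 0 of the 9 members. The 4 were TCP1 (log2 fold change 0.99), MYBL2 (1.30) and BSK2 (0.50), which rose in that fit, and BEH4 (-0.28), which fell. BSK2, a relative of BSK1, measured 3.51, 2.97 and 3.42 FPKM in WT against 4.28, 4.21 and 4.90 FPKM in the overexpressor, without overlap. BEH4, a relative of BZR1, measured 8.89, 10.8 and 10.9 FPKM against 9.46, 9.15 and 8.52 FPKM, with WT replicate 1 inside the overexpressor range. These 4 calls were absent from every other alternative, and their limma adjusted p ran from 0.00858 to 1.00.

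Genes that brassinosteroids are known to induce differed widely between libraries. All 12 were lowest in WT replicate 1, beside 31.9% of all genes tested. Of the 9 tested all 9 were higher in the overexpressor, beside 42.3% of all genes tested. Their median log2 fold change was 0.87 and 0 were called. Without WT replicate 1, 5 were higher and 4 lower and the median was 0.01. TCH4, an enzyme that remodels wall xyloglucan, measured 7.90, 85.8 and 95.4 FPKM in WT against 225, 42.0 and 101 FPKM in the overexpressor (log2 fold change 1.25, SE 1.08, limma adjusted p = 0.805). KCS1, which elongates fatty acids for wax, measured 34.0, 114 and 106 FPKM and at 102, 78.2 and 85.2 FPKM (limma adjusted p = 0.887). EXPA8, an expansin, and EXO, a growth-promoting wall protein, were at 0.271 and 0.392 FPKM in WT replicate 1 and at 11.97 to 33.7 FPKM in the other 5 libraries. These were named after their values were seen. In the overexpressor, replicate 1 was the highest of the 3 libraries in 9 of the 9 tested induced genes and in 4 of the 9 tested members, where 29.6% of all genes tested had this order.

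**Figure D3:**
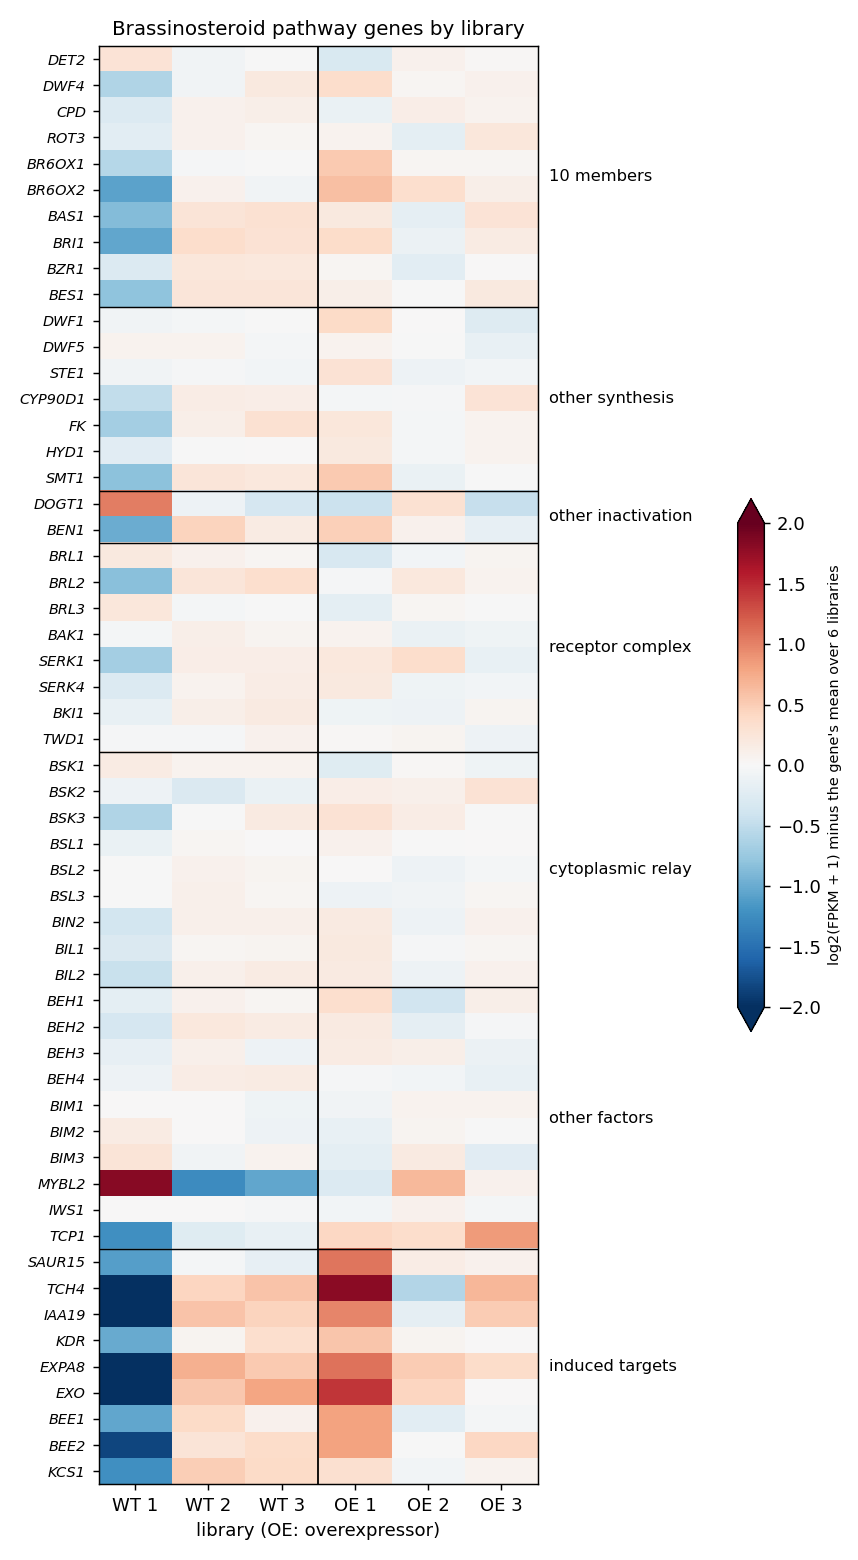
Log2(FPKM + 1) of each gene minus its mean over the 6 libraries (colour, red above and blue below the mean, cut at -2 and 2) for the 10 members and the tested genes of 6 other pathway lists (rows) in the 6 libraries (columns). The column of WT replicate 1 is blue for all 9 induced targets shown and for 9 of the 10 members.

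Daytime clock genes were high and most wall, vessel, epidermis and phloem markers low in WT replicate 1. The part of these genes in the results was not tested. The 7 daytime clock genes summed to 700 FPKM in WT replicate 1, to 188 and 179 FPKM in WT replicates 2 and 3, and to 266, 377 and 294 FPKM in overexpressor replicates 1, 2 and 3. All 7 were highest in WT replicate 1. GI, the clock gene GIGANTEA, measured 94.7, 6.85 and 6.98 FPKM in WT against 24.3, 44.2 and 30.9 FPKM in the overexpressor. Replicate 2, the overexpressor library with the most GI, had the lowest value of its group in 6 of the 10 members. These were DWF4, ROT3, BAS1, BRI1, BZR1 and BES1, while DET2 and CPD were highest there. The share of all genes lowest in that library within its group was not computed, and a link to GI was not tested. The 4 morning clock genes summed to 34.5 FPKM in WT replicate 1 and to 17.6 to 20.7 FPKM in the other 5 libraries. Of these genes, 3 were highest in WT replicate 1, while RVE1 was lowest there, at 7.55 FPKM. Summed levels of the 4 epidermis markers were 275 FPKM in WT replicate 1, 838 and 782 FPKM in WT replicates 2 and 3, and 612 to 751 FPKM in the overexpressor. The 3 vessel markers summed to 14.5 FPKM, 83.1 and 92.4 FPKM, and 74.1 to 104 FPKM, and the 4 phloem markers to 142 FPKM, 197 and 202 FPKM, and 173 to 177 FPKM.

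**Figure D4:**
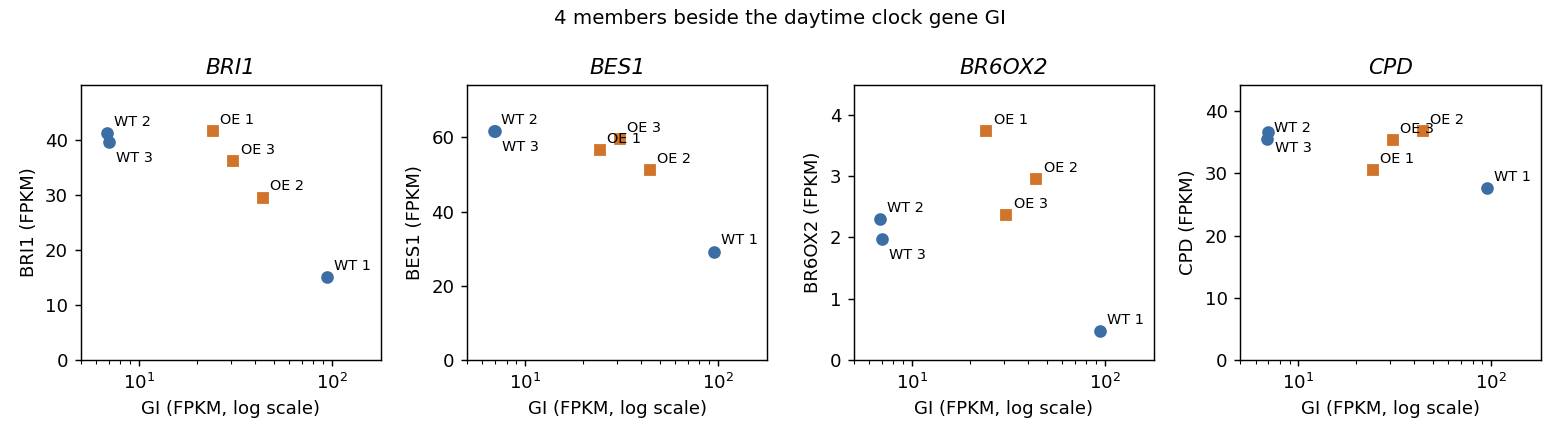
FPKM of BRI1, BES1, BR6OX2 and CPD (vertical axes, from 0) against FPKM of the daytime clock gene GI (horizontal axis, log scale) in the 3 WT (blue circles) and 3 overexpressor (OE, orange squares) libraries. WT replicate 1, with GI at 94.7 FPKM, has the lowest value in all 4 panels, and BR6OX2 is highest in overexpressor replicate 1 (3.74 FPKM). All 4 are among the 9 members lowest in WT replicate 1, and DET2, highest there (13.8 FPKM), is not shown.

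The genes closest in pattern to 4 members were found among 12572 candidates outside the pathway lists with a mean of at least 5 FPKM. Closeness was the root-mean-square difference of log2(FPKM + 1), each gene centred on its own mean, over the 6 libraries. Closest to BRI1 were AT1G20970, at 0.03, and PERK1, a receptor-like kinase, at 0.04, where the deviations of BRI1 itself had a root mean square of 0.50. For BES1 (0.37) they were IQD13 and AT2G45300, both at 0.05, and for BAS1 (0.42) IAA16, an auxin response repressor, and AT2G22420, both at 0.04. For CPD (0.15) they were STY17, a protein kinase, and AT3G45310, both at 0.03. IAA16 measured 82.1, 173 and 179 FPKM in WT against 173, 127 and 171 FPKM in the overexpressor, low in the same 2 libraries as BAS1. BAS1 itself ran from 0.264 to 1.85 FPKM, a 7.0-fold range and wider than that of IAA16. The added 1 FPKM shrinks the changes of so low a gene, so its closeness does not mean changes of like size. With 6 libraries, of which WT replicate 1 sets most of the variance, such closeness is a description only.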

How the data were processed

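The series measured RNA from 3 WT and 3 overexpressor stems. Per the labels' protocols, total RNA from a plant RNA kit went into libraries of a NEBNext Ultra kit. HISAT2, a spliced aligner, was used per the submitters' processing notes. Its version, the build, the annotation and the counting program are not stated in these sources. A single table of FPKM values for 24434 genes was deposited, and each column was matched to a sample by name, with 0 columns left over. All identifiers matched loci of RefSeq TAIR10.1.

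FPKM multiplied by the union exonic length in TAIR10.1 came to whole reads for 100% of values in each library (tolerance 0.1 reads), giving 44597288 to 45642240 assigned reads per library, and 1 read in 1 kb of exon was worth 0.0219 to 0.0224 FPKM. The use of this annotation is inferred from that. The main test was limma 3.58.1 (R 4.3.3), two-sided and with an intensity trend, applied to log2(FPKM + 1) of the 16870 genes whose mean reached 1 FPKM, adjusted by Benjamini-Hochberg at 0.05. Such fold changes understate changes of low genes. The steps were tested on simulated data with equal noise in every library and none standing apart. That does not show which differences they could find in these plants. Per the labels each sample was 1 plant, so p-values measure the spread between plants together with that of library preparation.

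Copies were searched with blastn 2.17.0, leaving out loci that overlap the member, and motifs in the 250 bases before each start. Alternatives were the pseudocount (0.1 and 0.01), no filter or a mean of at least 5 FPKM, median ratio scaling, voom on recovered reads, sample quality weights, the replicate number as a block, and leaving out each library.

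The members and gene lists were chosen with earlier results of these data known. Named beside the 10 members are the 2 genes of highest mean FPKM in each list. Any of their genes called with 6 libraries or without 1 WT library were to be named too (there were 0). GI, the 2 genes most like 4 members, and marker genes of tissues and the clock are also named. So are genes whose exons overlap those of a member, and those the text gives as named after their values were seen.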

Additional observations from a re-analysis of the deposited data

How the results depend on the processing

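All alternatives planned were run. The number of members called was 0 in each of the 14, and the lowest limma adjusted p of any member was 0.0534, for BZR1 with sample quality weights. The count of members higher in the overexpressor, 7 with 6 libraries, was 3 with a mean of at least 5 FPKM, where 5 members were tested, 4 with sample quality weights, DET2 among them, and 2 to 7 when 1 library was left out (2 without WT replicate 1). The count of all genes called, 2, was 4 with no filter, 1 with voom on recovered reads, 1768 with sample quality weights and 1 to 23 when 1 library was left out (23 without WT replicate 1). The pathway list had 4 calls with sample quality weights and 0 otherwise.

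Several signs changed. With sample quality weights the log2 fold change was 0.047 for DET2, -0.025 for CPD, -0.041 for BAS1, -0.18 for BRI1 and -0.073 for BES1. When 1 library was left out it ran from -0.076 to 0.13 for CPD, -0.037 to 0.18 for ROT3, -0.18 to 0.40 for BAS1, -0.19 to 0.51 for BRI1 and -0.15 to 0.38 for BES1, negative without WT replicate 1 in each. CPD was also negative without overexpressor replicate 2, and ROT3 without overexpressor replicate 3. The cause was not tested.

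The replicate block called 0 genes. Deviations of libraries with the same number correlated at -0.60, -0.59 and 0.03 across genes, so the numbers were not taken to pair plants. Depth limits BR6OX1, at 2 to 112 reads.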
